A study of Mus musculus with 2 samples.

Results

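The 40 interferon-stimulated genes described here are genes whose RNA type I interferon is known to raise, together with the receptor chains and transcription factors that carry its signal. They were taken by symbol from a fixed list, and 40 of 40 were found among the 55450 genes of the deposited count tables. The question put to them was whether their RNA was spread over all microglia or sat in a small responsive subset, in mice under anesthesia and in awake mice, and how macrophages and endothelial cells compared.

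All mice were adult male C57BL/6J (given as C57 in the sample labels), with no transgene or deletion named. The anesthesia group was 3 mice injected with sodium pentobarbital, a barbiturate, at 100 mg/kg, and the awake group was 3 mice injected with normal saline. Whole brains were dissociated with collagenase and DNase, and CD11b+ CD45low cells, the usual gate for microglia, were sorted and captured with the 10x 3' v3 kit. Each group gave 1 library, and the sources used here do not give whether its mice were pooled, how long the drug acted or the time of day. With 1 library a group there was no replicate check and no test, every interval covers counting error only, and effects of a library or its handling cannot be told apart from the group.

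The libraries held 61139016 (anesthesia) and 53262885 (awake) unique molecular identifiers (UMIs, each standing for 1 captured RNA molecule) in 9412 and 8600 barcodes. The median barcode had 5347 UMIs in the anesthesia library and 5883 in the awake library, the 99th percentile was 29399 and 15803 UMIs, and the median mitochondrial share was 2.26% and 1.45%. Their parts in the results were not tested. Ratios were also formed without cells over 10000 UMIs and in cells with at most 5% mitochondrial UMIs, and how many moved is given with the alternatives. Of the cells kept, 8488 in the anesthesia library and 7538 in the awake library were microglia-like, with 56954175 and 48251800 UMIs and all 10 microglial markers seen in at least 25% of the cells of every such cluster. The clusters named astrocyte-like, border-associated macrophage-like and neutrophil-like also had all 10 at that share. These markers alone thus do not set the microglia-like clusters apart. The libraries shared 14 barcodes, 11 of them among the cells kept.

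Type I interferons bind the receptor chains IFNAR1 and IFNAR2, whose kinases JAK1 and TYK2 activate transcription factors that include STAT2. STAT2 and IRF9 take part in a complex that binds interferon-stimulated response elements, short tandem repeats of GAAA upstream of the target genes, and the products of those genes sense or restrain viruses. Microglia and brain endothelial cells are known to respond to interferon, and in brain single-cell studies a small set of microglia that express many of these genes at once is often seen.

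Upstream sequence was read for 32 of the 40 genes from RefSeq promoter windows of 250 bases before to 50 bases after each start (build GRCm38.p6), and Oas2, Usp18, Mx1, Mx2, Rtp4, Parp14, Zbp1 and Ifi204 were not matched. The repeat GAAANNGAAA, searched on both strands with overlapping copies allowed, was in a window of 19 of these 32 genes (59.4%), against 1131 of 32851 windows of the same length over all genes (3.44%) and 1079 of 27025 genes (3.99%). The following lines give, 5′ to 3′ on the strand of the gene, 100-base stretches upstream of the start for members that the results turn on, with every copy of the repeat in capitals. A copy on the opposite strand appears as the reverse complement, TTTC repeats. The stretches are chr19:34640749-34640848 for Ifit1, chr19:34583345-34583444 for Ifit3 and chr19:34607741-34607840 for Ifit3b, all on the plus strand. They are chr4:156200836-156200935 for Isg15, chr12:26456518-26456617 for Rsad2 and chr1:173741810-173741909 for Ifi207, all on the minus strand. They are chr11:82951902-82952001 for Slfn5 and chr11:101448312-101448411 for Ifi35, both on the plus strand.
Ifit1: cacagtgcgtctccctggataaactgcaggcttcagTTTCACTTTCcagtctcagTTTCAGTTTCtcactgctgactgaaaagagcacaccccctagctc
Ifit3: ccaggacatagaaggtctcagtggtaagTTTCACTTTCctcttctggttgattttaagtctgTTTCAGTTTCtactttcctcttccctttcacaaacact
Ifit3b: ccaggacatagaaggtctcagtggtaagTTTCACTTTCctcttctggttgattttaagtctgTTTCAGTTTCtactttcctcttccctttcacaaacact
Isg15: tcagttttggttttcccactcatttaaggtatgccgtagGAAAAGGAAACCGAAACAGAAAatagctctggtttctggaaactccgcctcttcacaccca
Rsad2: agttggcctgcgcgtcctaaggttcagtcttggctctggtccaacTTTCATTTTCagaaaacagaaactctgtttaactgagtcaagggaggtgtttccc
Slfn5: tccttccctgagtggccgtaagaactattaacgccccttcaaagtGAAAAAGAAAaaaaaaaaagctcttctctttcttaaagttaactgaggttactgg
Ifi207: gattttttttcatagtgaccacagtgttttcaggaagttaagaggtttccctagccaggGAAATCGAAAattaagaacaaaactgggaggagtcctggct
Ifi35: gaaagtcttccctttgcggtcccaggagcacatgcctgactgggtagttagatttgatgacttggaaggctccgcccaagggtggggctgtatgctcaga

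The Isg15 stretch holds 3 overlapping copies, Ifit1, Ifit3 and Ifit3b hold 2 each, and Rsad2, Slfn5 and Ifi207 hold 1 each. The Ifit3 and Ifit3b stretches are identical over 100 of 100 bases. Ifi35, the only measured member past the fold limit in the lower direction below, has no copy in this stretch or in its whole window, and Ifit2, one of those past it in the higher direction, has none in either of its windows. A match is a description of the letters and not a binding site, and the absence of these letters says nothing of the factor.

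In microglia-like cells the genes did not move as a group. UMIs were summed over the cells of a class in each library and expressed as counts per 1000000 UMIs of that sum (CPM), and a member counted as measured with at least 200 UMIs over both libraries. The 31 measured members had a median log2 ratio, anesthesia over awake, of 0.07, with an interval over the members of -0.12 to 0.31, and the median of all 11412 measured genes was -0.02. Mx1, Mx2, Ifit2, Slfn5 and Ifi207 were at least 1.5-fold higher in the anesthesia library, 5 of 31, where 13.4% of all measured genes were. Ifi35 alone was at least 1.5-fold lower, 1 of 31, where 11.8% of all measured genes were. The first count is near the share over all genes, and 25 members lay between the limits. The 9 members below the minimum were Ifit1, Ifit3b, Oas1a, Oas2, Oas3, Oasl1, Oasl2, Cmpk2 and Ifi44, and each had at least 1 UMI in both libraries.

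**Figure D1:**
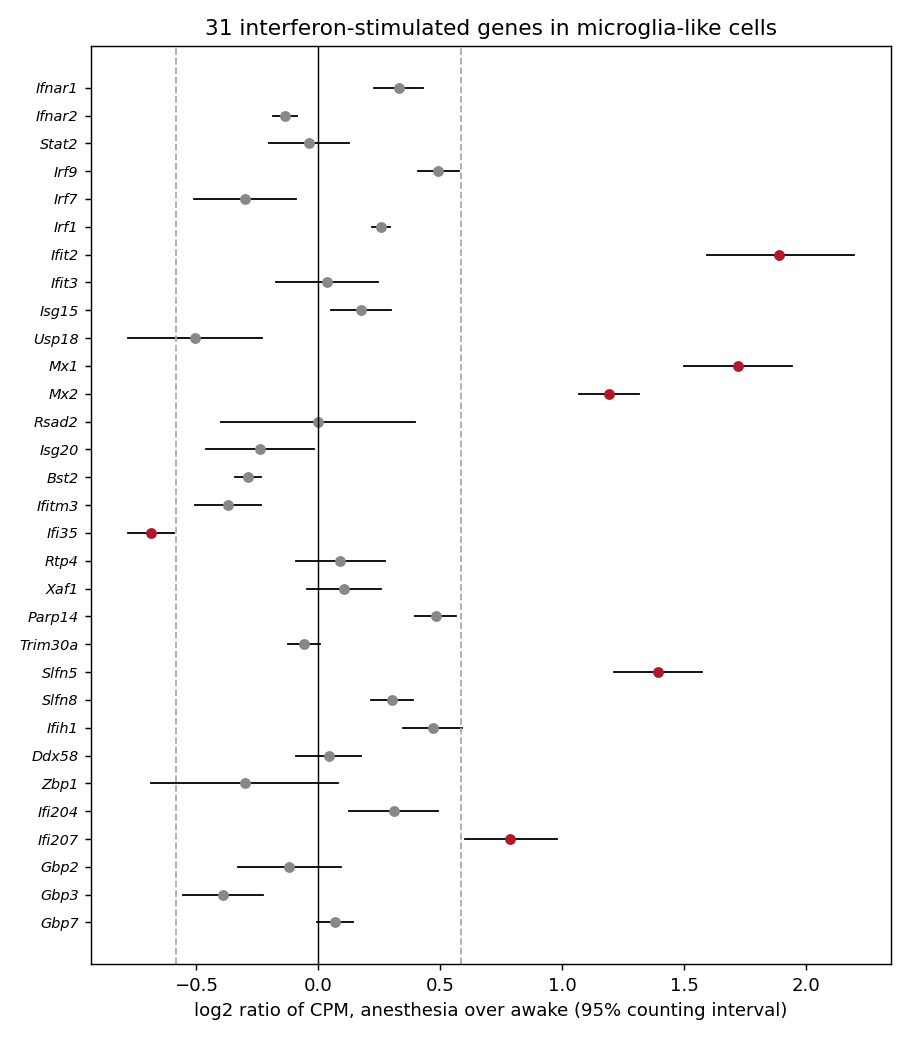
Log2 ratio of CPM, anesthesia over awake, in microglia-like cells for the 31 measured interferon-stimulated genes, ordered by role, with the 95% counting interval as a line. Dashed lines mark 1.5-fold. The red points are the 5 members past it to the right and Ifi35 to the left, and the other members lie between.

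The antiviral GTPases Mx1 and Mx2 were both higher in the anesthesia library. Mx proteins trap viral nucleoproteins, although in C57BL/6 and many other inbred mouse strains the Mx1 gene carries a deletion that leaves no working protein. Mx2 is annotated in GENCODE M21 as a polymorphic pseudogene, so its RNA need not give a working protein either. Mx1 (chr16:97447035-97462907, minus strand, GRCm38) had 820 UMIs and 14.4 CPM (95% interval 13.4 to 15.4) in anesthesia microglia-like cells, against 211 UMIs and 4.37 CPM (3.80 to 5.004) in awake ones. The log2 ratio was 1.72 (1.499 to 1.94), or 3.29-fold. Mx2 (chr16:97535308-97560900, plus strand) had 1974 UMIs and 34.7 CPM (33.1 to 36.2) in the anesthesia library, against 732 UMIs and 15.2 CPM (14.1 to 16.3) in the awake library, a log2 ratio of 1.19 (1.07 to 1.32). These nearby genes thus had levels whose counting intervals did not overlap between the libraries.

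Among the IFIT proteins, which bind foreign RNA and block its translation, Ifit2 stood apart from its neighbours. Ifit2 (chr19:34550694-34576419, plus strand) had 499 UMIs and 8.76 CPM (8.01 to 9.56) in the anesthesia library, against 114 UMIs and 2.36 CPM (1.95 to 2.84) in the awake library. Its log2 ratio was 1.89 (1.60 to 2.20), the largest of the measured members. Ifit3, whose human counterpart stabilises IFIT1 on RNA, had 7.36 CPM (6.67 to 8.10) in anesthesia cells and 7.17 CPM (6.44 to 7.97) in awake cells, and its log2 ratio of 0.04 had an interval that holds 0 (-0.17 to 0.25). Ifit1 had 75 and 87 UMIs, or 1.32 and 1.80 CPM, in the anesthesia and the awake library, and Ifit3b had 61 and 73 UMIs. Ifit3 and Ifit3b are near-identical copies, so the split of reads between them is uncertain.

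Slfn5 and Slfn8 belong to the Schlafen family, interferon-induced regulators of growth and RNA whose copies may also share reads. Slfn5 (chr11:82951349-82964840, plus strand) had 1025 UMIs and 17.997 CPM (16.9 to 19.1) in the anesthesia library, against 331 UMIs and 6.86 CPM (6.14 to 7.64) in the awake library, a log2 ratio of 1.39 (1.21 to 1.58). Slfn8 differed less, with 46.5 CPM in anesthesia and 37.7 CPM in awake cells and a log2 ratio of 0.30 (0.21 to 0.39). Ifi35, the leucine zipper protein that binds NMI in human cells, went the other way. It (chr11:101448407-101458698, plus strand) had 1538 UMIs and 27.0 CPM (25.7 to 28.4) in the anesthesia library, against 2096 UMIs and 43.4 CPM (41.6 to 45.3) in the awake library, and its log2 ratio was -0.69 (-0.78 to -0.59). The fold call of Ifi35 was lost when the ratio was formed within clusters, at -0.47, and with the trend over GC content and transcript length taken out, at -0.50. Values within clusters, here and below, lean on the few cells of 1 library in the other library's clusters.

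The other measured antiviral effectors lay between the limits. Parp14, an ADP-ribosyltransferase, had the next highest ratio among them, at 54.2 CPM in anesthesia and 38.8 CPM in awake cells and a log2 ratio of 0.48 (0.40 to 0.56), and its exons overlap those of the gene model Gm49730 on the same strand. Ifitm3, which blocks the fusion of viruses with the cell, had 14.98 CPM (13.99 to 16.02) in anesthesia and 19.4 CPM (18.2 to 20.7) in awake cells, and Bst2, the tetherin that holds budding virions at the cell surface, had 98.7 CPM (96.1 to 101.3) and 120.5 CPM (117.4 to 123.6). Their log2 ratios of -0.37 and -0.29 had intervals below 0, and within clusters they were -0.11 and -0.08. Rsad2, or viperin, which makes a chain-terminating nucleotide, had 118 and 100 UMIs, and at 2.07 CPM in each library the interval of its log2 ratio was -0.40 to 0.40. The exonuclease Isg20, the receptor chaperone Rtp4, Xaf1, which counters the apoptosis inhibitor XIAP, and Trim30a, which restrains Toll-like receptor signalling, had log2 ratios from -0.24 (Isg20) to 0.11 (Xaf1).

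The sensors of nucleic acids had 4 of 5 ratios above 0 and 1 past the fold limit. Ifi207 (chr1:173723427-173741747, minus strand), a member of the p200 family of DNA-binding proteins, had 701 UMIs and 12.3 CPM (11.4 to 13.3) in the anesthesia library, against 344 UMIs and 7.13 CPM (6.40 to 7.92) in the awake library, a log2 ratio of 0.79 (0.60 to 0.98). Ifi204, its neighbour and paralog, with which it may share reads, had 10.7 and 8.60 CPM in the anesthesia and the awake library and a log2 ratio of 0.31 (0.13 to 0.49), which was -0.01 within clusters. The sensor of long double-stranded RNA Ifih1 (MDA5) had 26.3 and 19.0 CPM in the same order and 0.47 (0.35 to 0.59). Ddx58 (RIG-I), which senses the ends of viral RNA, had 0.04 (-0.09 to 0.18), and Zbp1, which senses Z-form nucleic acids and can start cell death, had the lowest ratio of the role, -0.30 (-0.69 to 0.08), with 113 and 118 UMIs, and -1.04 within clusters. That last value rests in part on few UMIs. Clusters 0 and 1 held 2 and 0 awake UMIs of Zbp1, and clusters 2 and 3 held 0 anesthesia UMIs each.

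The receptor and the factors that carry the signal differed little, and not in 1 direction. Ifnar1 (chr16:91485238-91507441) had 35.6 CPM (34.1 to 37.2) in anesthesia and 28.3 CPM (26.9 to 29.9) in awake cells, a log2 ratio of 0.33 (0.23 to 0.43), which was -0.01 when formed within clusters. Ifnar2 (chr16:91372783-91405589) had 120.3 CPM (117.5 to 123.2) and 132.1 CPM (128.9 to 135.4), a log2 ratio of -0.13 (-0.18 to -0.09), and its exons overlap those of Gm21970 on the same strand. Of the factors, Irf9, the DNA-binding part of that complex, had the highest ratio, with 52.0 CPM (50.1 to 53.9) in anesthesia and 36.9 CPM (35.2 to 38.7) in awake cells and 0.49 (0.41 to 0.58) on the log2 scale, and its exons overlap Rnf31. Within clusters its ratio was 0.18. Irf7, which amplifies the interferon response and is itself a target, had the lowest, with 6.57 CPM (5.92 to 7.27) and 8.08 CPM (7.30 to 8.93) and -0.30 (-0.51 to -0.09), and its ratio was 0.08 without the cluster led by members that is described further on. Irf1, which interferon gamma and NF-kB also induce, had 239.1 CPM (235.1 to 243.1) in anesthesia and 200.1 CPM (196.1 to 204.1) in awake cells and a ratio of 0.26 (0.22 to 0.29), and Stat2 had -0.04 (-0.20 to 0.12).

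The measured members of the ISG15 system and the guanylate-binding proteins also lay between the limits over all microglia-like cells. Isg15, a ubiquitin-like tag for proteins, had 22.3 CPM (21.1 to 23.5) in the anesthesia library and 19.7 CPM (18.5 to 21.02) in the awake library, a log2 ratio of 0.17 (0.05 to 0.30). Usp18, which removes ISG15 and damps the receptor, had 204 UMIs and 3.58 CPM (3.11 to 4.11) in the anesthesia library, against 245 UMIs and 5.08 CPM (4.46 to 5.75) in the awake library, a ratio of -0.50 (-0.78 to -0.23). Within clusters the ratio of Usp18 was -1.27, past the fold limit. That value rests in part on few UMIs. Clusters 0 and 1 held 0 and 1 awake UMIs of Usp18, and clusters 2 and 3 held 2 and 0 anesthesia UMIs. Of the guanylate-binding proteins, GTPases that attack the vacuoles of microbes, Gbp7 had the highest ratio at 0.07 (-0.01 to 0.14), Gbp2 had -0.12 (-0.33 to 0.09) and Gbp3 had the lowest at -0.39 (-0.55 to -0.23). Within clusters these were 0.29 for Gbp7, 0.29 for Gbp2 and 0.09 for Gbp3. Reads may be shared between these copies, and Gbp7 exons overlap Gm43802.

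The oligoadenylate synthetase family, which makes the messenger that activates RNase L, held no measured member. Oas1a had 48 UMIs in anesthesia and 100 in awake cells, Oasl2 had 52 and 131, Oasl1 had 30 and 45, Oas2 had 8 and 17, and Oas3 had 7 and 9. All 5 ratios lay below 0. The intervals of Oas1a (-1.83 to -0.79), Oasl2 (-2.06 to -1.10), Oasl1 (-1.54 to -0.13) and Oas2 (-2.75 to -0.04) did not hold 0, whereas that of Oas3 (-2.26 to 0.99) did. For Oasl1, 15 of the 45 awake UMIs lay in 1 cell, and the 10 richest awake cells held 75.6% of them. The Oasl1 ratio thus leans on that cell. Of the remaining members below the minimum, the mitochondrial nucleotide kinase Cmpk2 had 63 UMIs in anesthesia and 35 in awake cells (log2 ratio 0.61, -0.01 to 1.25), and Ifi44 had 11 and 8. Lowering the minimum to 50 UMIs gave 37 members with 6 higher, Cmpk2 being added, and 4 lower, Oas1a, Oasl1 and Oasl2 being added, where 17.9% and 12.2% of 14307 genes were.

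The higher members were seen in more cells, still a small share of them. Each microglia-like cell with at least 2000 UMIs was thinned to 2000, which left 8182 cells in the anesthesia library and 7351 in the awake library and took out 306 and 187. At that depth Mx1 was seen in 2.65% (2.32 to 3.02) of anesthesia and 0.816% (0.623 to 1.05) of awake cells, and Mx2 in 6.61% (6.08 to 7.17) and 2.78% (2.41 to 3.18). Ifit2 was seen in 1.28% of anesthesia and 0.435% of awake cells, Slfn5 in 2.79% and 1.10%, and Ifi207 in 1.65% and 1.09%. Ifi35 had its order reversed, with 5.37% (4.89 to 5.88) of anesthesia and 8.46% (7.84 to 9.12) of awake cells. Without thinning, at medians of 5435.5 UMIs in anesthesia and 5950.5 UMIs in awake cells, Mx1 was seen in 6.66% and 1.90% and Ifi35 in 15.9% and 23.8%. No cell class in these libraries can be taken to lack these genes, so the share that free RNA alone would give was not measured on them. The 10 endothelial markers stood in microglia-like cells at a median of 0.273% (anesthesia) and 0.260% (awake) of their level in endothelial-like cells, with 0 markers at 0.

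**Figure D2:**
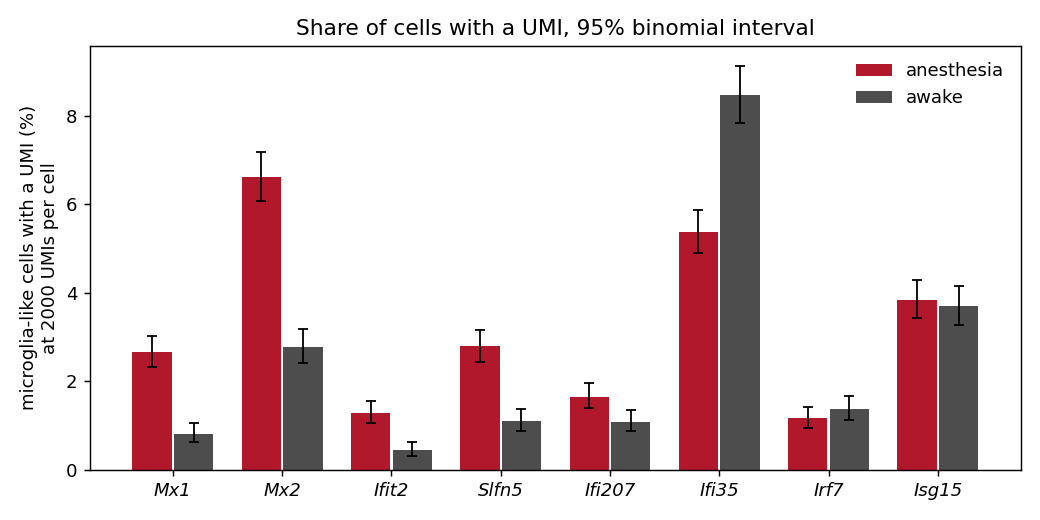
Share of microglia-like cells with at least 1 UMI of a gene (percent) after thinning to 2000 UMIs a cell, for the 6 members past the fold limit and for Irf7 and Isg15, with anesthesia bars left of awake bars and the exact 95% binomial interval. Mx1, Mx2, Ifit2, Slfn5 and Ifi207 have intervals that lie apart with anesthesia above, Ifi35 with awake above, and Irf7 and Isg15 overlap.

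A small set of cells held several members at once in each library. To find it without judging a gene by the cells it chose, 20 members were put in 2 panels of 10, and a cell was called responsive by a panel with UMIs of at least 3 different genes of it at 2000 UMIs. Panel A held Ifit1, Ifit3, Ifit3b, Oasl2, Oas1a, Rsad2, Mx1, Ifi204, Slfn5 and Usp18, and panel B held Ifit2, Isg15, Irf7, Oasl1, Oas2, Cmpk2, Rtp4, Ifi44, Zbp1 and Xaf1. Cells chosen by B serve for the members of A, cells chosen by A for all members of B, and cells chosen by either for the remaining members. Panel A counts Ifit3 and Ifit3b as different genes although they may share reads. Ifi207 and Slfn8 are judged in cells chosen in part by Ifi204 and Slfn5, with which they may share reads. Panel A chose 36 of 8182 anesthesia cells, 0.440% (0.308 to 0.609), and 18 of 7351 awake cells, 0.245% (0.145 to 0.387). Panel B chose 13 anesthesia cells, 0.159% (0.0846 to 0.272), and 20 awake cells, 0.272% (0.166 to 0.420). The panels thus put the libraries in opposite order, with overlapping intervals, so no direction can be read for the size of the set. The order also rested on the depth, since at 4000 UMIs both panels gave the higher share in anesthesia cells, 0.827% against 0.638% in awake cells by A and 0.701% against 0.652% by B. With Mx1 and Slfn5 left out of A and Ifit2 out of B, the shares were 0.232% and 0.177% by A and 0.122% and 0.218% by B, for anesthesia and awake cells in that order.

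The number of responsive cells rests on the limit of 3 genes, and whether they form a separate type was not tested. Exactly 3 genes of panel A were seen in 18 of the 36 anesthesia and 7 of the 18 awake cells it chose, and exactly 2 genes, just outside, in 60 and 34 cells. For panel B, 7 of its 13 anesthesia and 10 of its 20 awake cells had exactly 3 genes, and 72 and 58 cells had 2. Either panel chose 40 anesthesia and 31 awake cells, and both chose 9 and 7. No gene of either panel was seen in 83.3% (82.4 to 84.1) of anesthesia cells and 87.0% (86.2 to 87.7) of awake cells at this depth. When the members were allowed to shape the clustering, a cluster led by them appeared with 98 of 8455 anesthesia (1.16%) and 111 of 7558 awake (1.47%) microglia-like cells, which are given as a description because the members made it. Either panel called 39 of its 97 anesthesia cells and 31 of its 111 awake cells with at least 2000 UMIs responsive.

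Within the responsive cells most measured members were higher than in the rest, and the receptor chains were not beyond counting error. The fold of CPM in responsive over other microglia-like cells had a median over the 31 measured members of 9.59 in the anesthesia library (range 0.598 to 355) and 11.5 in the awake library (1.11 to 282). Rsad2 had the largest fold, 355 (235 to 529) in anesthesia and 282 (186 to 425) in awake cells, on 38 and 46 UMIs in the chosen cells. Ifit3 had 102 (74.2 to 137) and 206 (165 to 258), and Irf7 had 49.9 (37.8 to 65.0) and 70.6 (52.9 to 92.9). At the other end, the intervals for Ifnar1 (0.219 to 1.30 in anesthesia, 0.444 to 2.29 in awake cells) and Ifnar2 (0.797 to 1.55, and 0.877 to 1.72) held 1. Irf9 had 1.65 in anesthesia and 1.69 in awake cells, and Irf1 had 1.49 and 1.2004. These folds show that RNA of most measured members was concentrated in the cells chosen without them, in both libraries. The same folds were not computed over all measured genes. Whether the members stand out from other genes in these cells was therefore not tested.

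**Figure D3:**
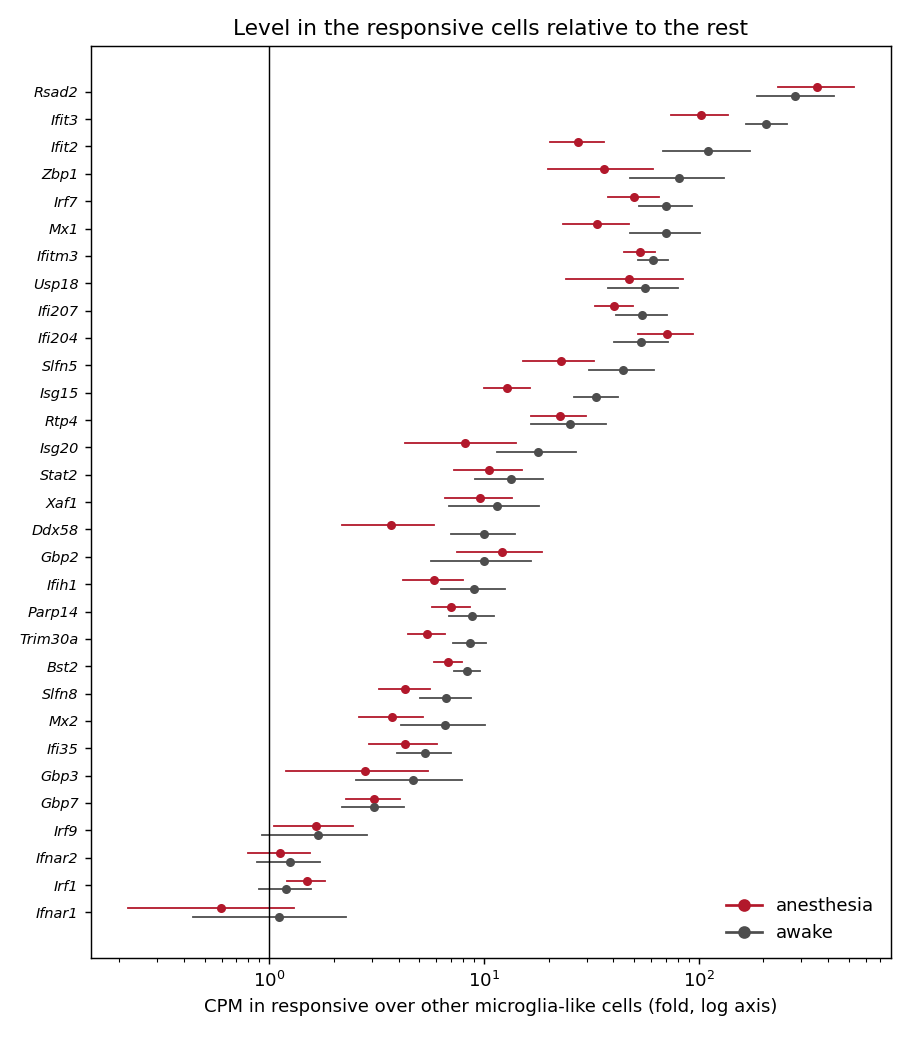
Fold of CPM in responsive over other microglia-like cells (log axis) for the 31 measured members, each judged in cells chosen without it, with the 95% counting interval and the anesthesia library drawn above the awake library. For Ifi207 and Slfn8 the choice used genes with which they may share reads. Rsad2 is at the top with 355 and 282, and Ifnar1, Irf1, Ifnar2 and Irf9 lie near 1.

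The 5 higher members were also higher in the anesthesia library outside the responsive cells. There Mx1 had 13.8 CPM (12.8 to 14.8) in anesthesia and 3.64 CPM (3.12 to 4.22) in awake cells, a log2 ratio of 1.92 (1.68 to 2.17), and was seen in 2.57% of anesthesia and 0.737% of awake cells. The chosen cells held 4.31% of the Mx1 UMIs in anesthesia and 17.5% in awake cells, 11.1% and 22.8% of those of Ifit2, 16.8% and 20.4% of those of Ifi207, 2.95% and 11.8% of those of Slfn5, and 1.84% and 3.01% of those of Mx2. Ifit2 had 7.80 and 1.84 CPM outside (log2 ratio 2.08, 1.75 to 2.43), Slfn5 17.5 and 6.11 CPM (1.52, 1.33 to 1.71), Mx2 34.2 and 14.9 CPM (1.203, 1.08 to 1.33) and Ifi207 10.3 and 5.72 CPM (0.85, 0.64 to 1.06), for anesthesia and awake cells in that order. Ifi35 had 26.6 and 42.7 CPM outside and a ratio of -0.68 (-0.78 to -0.58). Without the cluster led by members, a choice added after seeing the data, the log2 ratios were 2.00002 for Mx1, 2.61 for Ifit2, 1.78 for Slfn5, 1.22 for Mx2, 0.95 for Ifi207 and -0.67 for Ifi35. Ifit3 then passed the fold limit as well, at 0.76. These values are a description only, because the members made that cluster and its cells were chosen in part by the counts judged.

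Over all members the picture outside the responsive cells was close to that in the whole class. Of 29 members with 200 UMIs there, 5 were at least 1.5-fold higher and 1 lower, where 13.4% and 11.9% of 11382 measured genes were. Their median log2 ratio was 0.09 (-0.14 to 0.49), and that of all genes was -0.02. Ifit3 shifted most, by 0.51, with 6.50 CPM (5.86 to 7.20) in anesthesia and 4.45 CPM (3.88 to 5.09) in awake cells outside and a log2 ratio of 0.55 (0.30 to 0.80), against 0.03 over the same cells with the responsive ones included. Its awake UMIs lay to 38.4% in 20 responsive cells, and its anesthesia UMIs to 12.0% in 13. In all, 6 of the 31 members shifted by over 0.1.

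How unevenly a member's RNA was spread is shown by the Fano factor of its thinned counts, the variance over the mean, which is near 1 for RNA scattered at random over equal cells. Ifnar1 had 1.01 in anesthesia and 1.02 in awake cells and Ifnar2 had 1.02 and 0.990, whereas Ifitm3 had 1.96 and 2.11, Ifit3 1.84 and 2.05, and Ifi207 2.12 and 1.56. Mx2, at 1.11 and 1.08, and Ifi35, at 1.02 and 0.995, were close to the even end. Mx1 had 1.26 and 1.28, Ifit2 1.31 and 1.38, and Slfn5 1.77 and 1.21. For a gene with very few UMIs the factor stays near 1 however they are spread, so it cannot show uneven spread there.

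Microglia-like cells of the libraries fell into different clusters even though the members were kept out of the genes used for clustering. Clusters 0 and 1 were nearly all anesthesia (3936 and 3891 anesthesia cells, 49 and 76 awake cells), and clusters 2 and 3 nearly all awake (88 and 77 anesthesia cells, 3878 and 3049 awake cells). Within the anesthesia library Mx1 was alike in cluster 1, led by Nr4a3 and Cxcl2, with 14.6 CPM (13.1 to 16.3), and in cluster 0, led by Gm45540 and Gpr183, with 14.1 CPM (12.8 to 15.5). Within the awake library it had 3.88 CPM in cluster 3, led by Gm17056 and Sbno2, and 4.85 CPM in cluster 2, led by Klf2 and Tsc22d3, with an interval of the log2 ratio from -0.74 to 0.10. Each large anesthesia cluster was thus above each large awake cluster. Ifit2 behaved likewise, at 8.95 and 8.34 CPM in clusters 1 and 0 and 2.76 and 1.96 CPM in clusters 3 and 2.

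Members also differed between the large clusters of 1 library, with the cluster higher in Irf1 given first, and 11 of 31 in each library had a log2 ratio with an interval off 0. In 12 of the 31, counting either library, such a ratio was larger in size than the ratio between the libraries. The shares over all measured genes were not computed for these counts, so they are not read as a trait of the members. Irf1 had 287 CPM in cluster 1 and 206 CPM in cluster 0 of the anesthesia library (log2 ratio 0.48), and 265 CPM in cluster 3 and 146 CPM in cluster 2 of the awake library (0.86, 0.79 to 0.92). Gbp2 had 9.35 and 5.20 CPM in clusters 3 and 2 (0.85, 0.51 to 1.19), and Isg15 had 28.5 and 18.2 CPM in clusters 1 and 0 (0.64, 0.48 to 0.80). Ifi207 went opposite ways, with 8.82 and 14.5 CPM in clusters 1 and 0 (-0.72, -0.96 to -0.48) and 8.04 and 3.29 CPM in clusters 3 and 2 (1.29, 0.89 to 1.70). Its levels in anesthesia cluster 1 (7.66 to 10.1) and awake cluster 3 (6.90 to 9.31) had overlapping intervals. In all, 2 of 31 members passed 1.5-fold either way between the anesthesia clusters, where 6.15% of all measured genes did, and 3 of 31 between the awake clusters, where 8.93% did. Both counts are near those shares. With equal weight given to each library within every cluster, the 5 higher members remained the same, with log2 ratios of 2.79 for Ifit2, 2.24 for Mx1, 1.57 for Slfn5, 0.70 for Mx2 and 0.70 for Ifi207. Those values, and all others given within clusters, lean on the few cells of 1 library in the other library's clusters. They also rest in part on few UMIs. Clusters 0 and 1 held 1 and 0 awake UMIs of Ifit2, 2 and 1 of Mx1, and 0 and 2 of Slfn5. Clusters 2 and 3 held 1 and 0 anesthesia UMIs of Ifi207.

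Border-associated macrophages line the vessels and meninges, and cells of 1 cluster with at least 3 of 10 such markers, a rule set after seeing the data, were taken as border-associated macrophage-like. There were 35 of them in the anesthesia library and 53 in the awake library, with 621462 and 418286 UMIs and medians of 13237 and 7059 UMIs. They also carried the 10 microglial markers at a median of 87.2% (range 79.2 to 105) of the microglia-like level in the anesthesia library and 57.2% (48.3 to 76.3) in the awake library, with 0 markers at 0, and the part of these in the results was not tested. Set against microglia-like cells of the same library, 19 of the 31 measured members were higher with an interval off 0 in the anesthesia library, where 5.44% of all measured genes were, and 21 in the awake library, where 7.05% were. In the lower direction there were 0 and 1, where 3.57% and 6.69% of all measured genes were. Ifi207 was the clearest, with 457 CPM (405 to 513) in anesthesia and 533 CPM (465 to 608) in awake macrophage-like cells, 37.1 and 74.8 times the microglia-like level. Ifi204 was 10.3 and 12.5 times that level.

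Between the libraries the macrophage-like cells gave few usable counts. Of 14 members with at least 50 UMIs over both libraries, 1 was at least 1.5-fold higher and 5 lower in the anesthesia library, where 20.8% and 13% of 3409 genes were, and the median log2 ratio was -0.34 (-1.46 to 0.46) against 0.11 for all genes. Irf1 was the higher one, with 134 UMIs and 216 CPM (181 to 255) in anesthesia and 40 UMIs and 95.6 CPM (68.3 to 130) in awake cells. Rsad2 (12 and 63 UMIs, 19.3 and 151 CPM), Ifitm3 (58 and 181 UMIs, 93.3 and 433 CPM) and Bst2 (149 and 276 UMIs, 240 and 660 CPM) were among the lower ones, in the anesthesia and the awake library in that order. Rsad2 reached the minimum of 50 UMIs mainly through the awake library. The awake Rsad2 UMIs had a Fano factor of 16.7, and 7.55% of the awake cells held them without thinning. By either panel 1 of 35 anesthesia and 2 of 49 awake macrophage-like cells were responsive. Over all 97 anesthesia and 159 awake cells of the cluster, the median log2 ratio was -0.11.

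**Figure D4:**
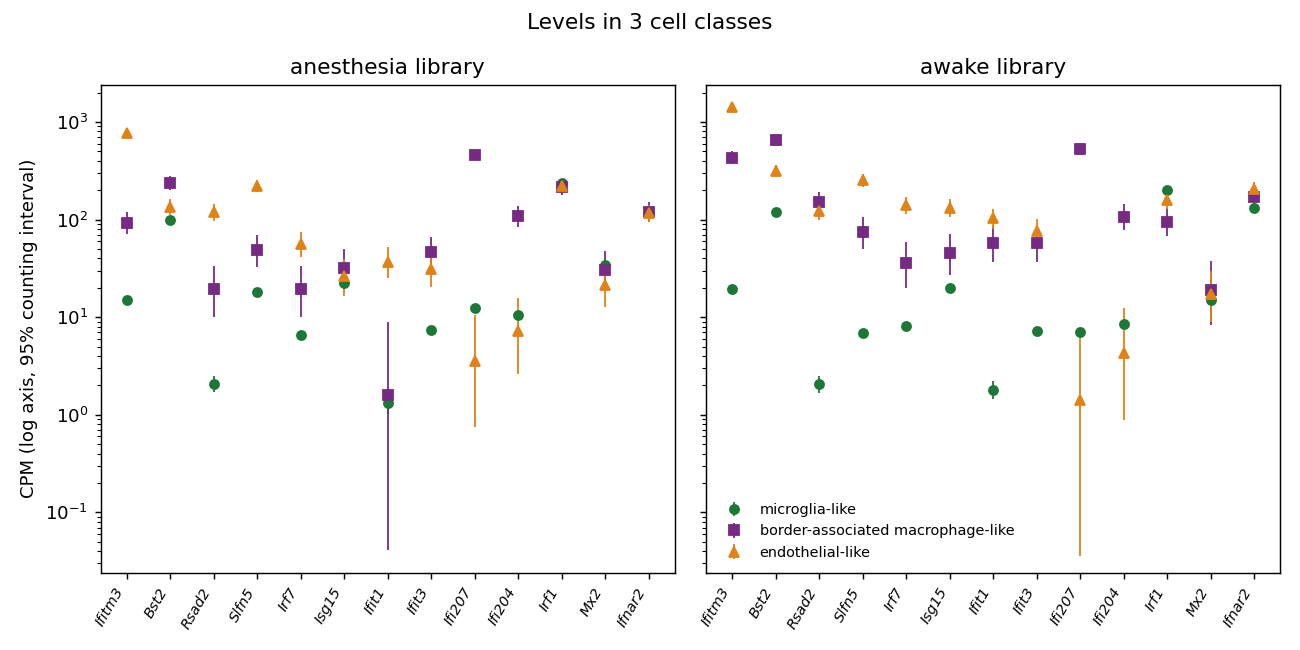
CPM (log axis) of 13 members in microglia-like cells (circles), border-associated macrophage-like cells (squares) and endothelial-like cells (triangles) of the anesthesia library, left, and the awake library, right, with the 95% counting interval. Ifi207 and Ifi204 are highest in the macrophage-like cells and Ifitm3, Slfn5 and Irf7 in the endothelial-like cells of both libraries.

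Endothelial cells form the blood-brain barrier, and 123 anesthesia and 113 awake cells were endothelial-like, with 833514 and 700396 UMIs and medians of 4535 and 5507 UMIs. Several members stood far above their microglia-like level in both libraries. Ifitm3 had 763 CPM (705 to 825) in anesthesia and 1422 CPM (1335 to 1513) in awake endothelial-like cells, 50.9 and 73.4 times the microglia-like level. Rsad2 was 57.3 and 59.2 times that level, Slfn5 12.4 and 36.8 times, and Irf7 8.59 and 17.3 times. Against microglia-like cells of the same library, 17 of the 31 measured members were higher with an interval off 0 in the anesthesia library, where 16.2% of all measured genes were, and 21 in the awake library, where 22.1% were. In the lower direction there were 3 and 2, where 20.8% and 21.2% of all measured genes were. Irf1 stood at 0.918 of the microglia-like level in the anesthesia library, with an interval of the log2 ratio that held 0 (-0.34 to 0.09), and at 0.785 in the awake library (-0.63 to -0.08).

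Between the libraries most members were lower in the anesthesia endothelial-like cells. Of 24 members with at least 50 UMIs, 0 were at least 1.5-fold higher, where 18.6% of 4900 genes were, and 16 were lower, where 20.8% of them were. The median log2 ratio was -0.83 (-1.31 to -0.54), with 21 of 24 below 0, and that of all genes was -0.06. The minimum of 50 UMIs was on the sum of both libraries, for members and all genes alike. Isg15, Oasl2 and Usp18 (15 anesthesia and 35 awake UMIs) reached it mainly through the awake library, where they were higher. Isg15 had 22 UMIs and 26.4 CPM (16.5 to 39.96) in the anesthesia library, against 93 UMIs and 133 CPM (107 to 163) in the awake library, a log2 ratio of -2.33 (-3.07 to -1.65). Oasl2 had 16 and 54 UMIs (-2.01, -2.91 to -1.18), Ifi35 had 38 and 95 UMIs (-1.57, -2.16 to -1.02) and Irf7 had 47 and 98 UMIs (-1.31, -1.84 to -0.80). Stat2, Rsad2, Slfn5, Parp14, Trim30a, Ifih1 and Gbp2 had intervals that held 0, and Irf1 was above, with 220 CPM in anesthesia and 157 CPM in awake cells (0.48, 0.13 to 0.84). Mx1, below the minimum, had 15 UMIs in anesthesia and 1 in awake endothelial-like cells (3.66, 0.96 to 9.05).

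Microglial RNA in these cells and the endothelial markers themselves moved with that result. The 10 microglial markers stood at a median of 43.1% (36.7 to 51.6) of their microglia-like level in anesthesia endothelial-like cells and 19.0% (14.6 to 20.2) in awake ones, with 0 of 10 at 0. The endothelial markers had a median log2 ratio of -0.67, and 6 of 10 were at least 1.5-fold lower. When that share of the microglia-like profile was taken out of each library, the median of the endothelial markers was -0.16, with 1 of 10 at least 1.5-fold lower, and the median of the members was -0.65, with 13 of 24 lower and 19 below 0. Isg15 was then at -2.43, Ifi35 at -1.40 and Irf7 at -0.86. The share over all genes was not computed with this part taken out, so the member counts have only the markers beside them. Cells called responsive by panel A were 10 of 112 in the anesthesia library, 8.93% (4.36 to 15.8), and 21 of 106 in the awake library, 19.8% (12.7 to 28.7), and by panel B 2, 1.79% (0.217 to 6.30), and 9, 8.49% (3.96 to 15.5).

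**Figure D5:**
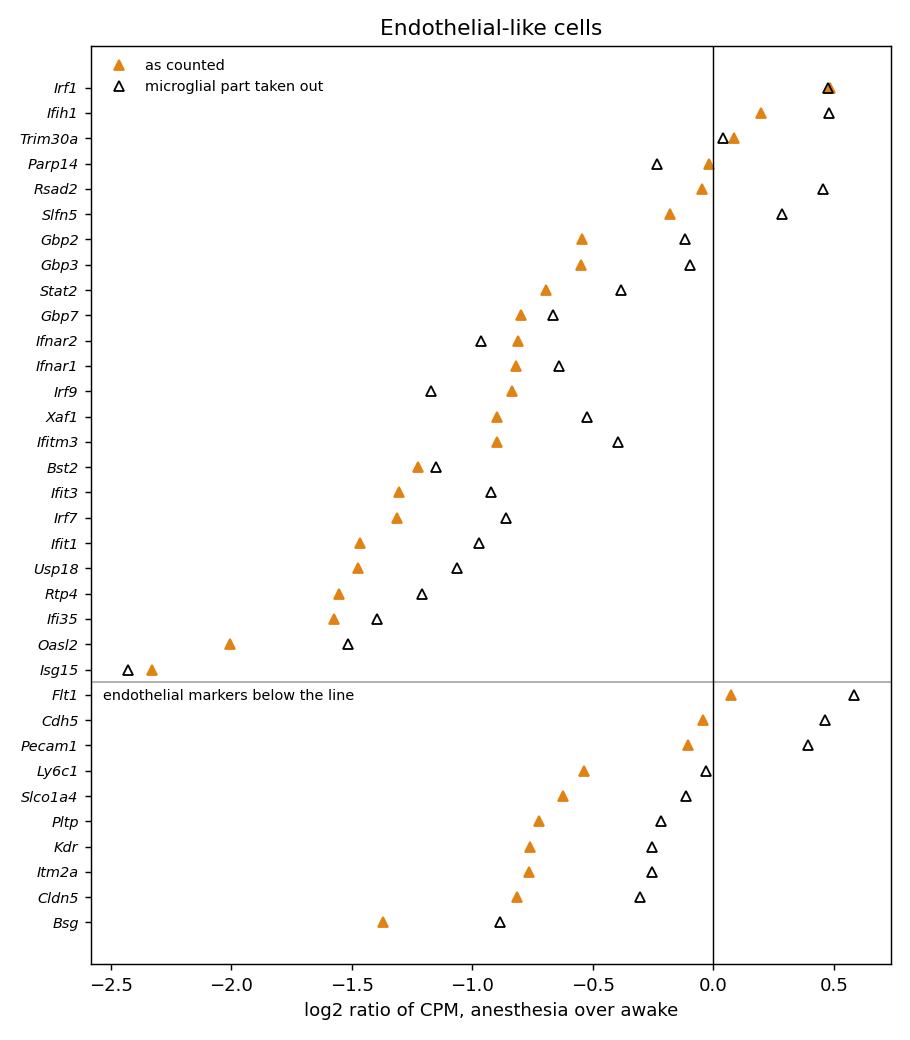
Log2 ratio of CPM, anesthesia over awake, in endothelial-like cells for 24 members, above the line, and 10 endothelial markers, below it, as counted (filled) and with the microglial part taken out (open). The members have medians of -0.83 and -0.65, the markers -0.67 and -0.16, and Isg15 is the lowest member.

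The rest of the pathway did not move as a group in microglia-like cells. Of 85 further symbols for ligands, kinases, factors, inhibitors, upstream sensors and other targets, 84 were found and 62 were measured, and the median of their log2 ratios was -0.01. Past 1.5-fold there were 8 higher and 7 lower genes, beside the same 13.4% and 11.8% of all measured genes. The 5 highest were the lectin Lgals9 (262 CPM in anesthesia and 124 CPM in awake cells, log2 ratio 1.08), the chemokines Ccl5 (0.89) and Cxcl10 (188 and 108 CPM, 0.80), the kinase Jak2 (0.76) and the DNA sensor Tlr9 (0.75). The 5 lowest were Ifngr1, a receptor chain for interferon gamma (230 CPM in anesthesia and 475 CPM in awake cells, -1.05), the factor Irf3, which switches on interferon genes (-0.77), Parp9 (-0.75), the chemokine Ccl12 (267 and 424 CPM, -0.67) and Ly6a (-0.65). Of the receptor's kinases, Jak1 had a log2 ratio of 0.30 and Tyk2 of -0.33.

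No interferon ligand of 6 reached 200 UMIs. Ifnb1, the gene of interferon beta, chosen for mention after its values were seen, had 105 UMIs in 32 anesthesia microglia-like cells, against 13 UMIs in 11 awake ones, a log2 ratio of 2.77 (1.94 to 3.73). The 10 richest cells held 79 of the 105 anesthesia UMIs, 24 of them in 1 cell, and 12 of the 13 awake UMIs.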

How the data were processed

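UMI counts per gene and barcode, whole numbers and not normalized, were used as deposited by the authors, 1 matrix for each library. Per the submitters' processing notes, reads were handled with bcl2fastq and Cell Ranger 3.1.0 on GRCm38. The headers of both matrices name version 4.0.0 instead, and which version made the counts is not known. The lowest barcode held 501 UMIs. The members and all lists were chosen with earlier results of these data known.

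Cells with at least 500 genes, 1000 UMIs and at most 10% mitochondrial UMIs were kept, 8944 of 9412 in the anesthesia library and 8223 of 8600 in the awake library. They were clustered together in Python 3.11.15 with numpy 2.4.6, scanpy 1.11.5 and leidenalg 0.10.2 (2000 variable genes, 30 components, 15 neighbours, resolution 0.6). Variable genes left out the members, the other pathway genes, mitochondrial, ribosomal and hemoglobin genes, and immediate early, NF-kB and heat shock genes. Clusters were named from 10 markers a class. Scrublet called 1 anesthesia and 0 awake doublets, so it did not work here and removed no cell.

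Counts were summed by library and class. Ratios have exact conditional binomial intervals, CPM exact Poisson and shares exact binomial (Clopper-Pearson) intervals at 95%, computed with scipy 1.17.1, and all cover counting error only. A change needed 1.5-fold and at least 200 UMIs, or 50 in the smaller classes. Gene positions are from GENCODE M21. Full values are given for every member past that fold and for the highest and lowest ratio of each role, and for the 5 highest and 5 lowest other pathway genes. Other named values were chosen after they were seen. The procedures were tested on simulated data. The symbol Mb21d1 was not matched. Of the other pathway genes, 1 is not reported here by name.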

Additional observations from a re-analysis of the deposited data

Results flagged for a closer look

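In 4 cases a member's ratio went one way in a smaller cell class and the other way in microglia-like cells, each with a counting interval off 0. With 1 library a group, these differences were not tested. Mx1 had a log2 ratio, anesthesia over awake, of -1.89 in border-associated macrophage-like cells (8 and 20 UMIs) and 1.72 in microglia-like cells. In the macrophage-like cells Mx1 was below the minimum set for the smaller classes. Without thinning it was seen there in 14.3% of anesthesia and 11.3% of awake cells. Those shares are at unequal depth, with medians of 13237 and 7059 UMIs. At 2000 UMIs a cell it was seen in 1 of 35 anesthesia and 1 of 49 awake cells. These are too few to set the share of cells against the CPM. In endothelial-like cells Ifnar1 had -0.82, Irf9 had -0.84 and Isg15 had -2.33, against 0.33, 0.49 and 0.17 in microglia-like cells.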

How the results depend on the processing

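The count of members at least 1.5-fold higher in microglia-like cells was 4 to 6 under every alternative, and wherever Ifit2 kept its 200 UMIs the same 5 members were among them. At 2000 UMIs a cell it fell below that minimum. Over the alternatives the log2 ratio of Ifit2 ranged from 1.75 to 2.79, Mx1 from 1.57 to 2.24 and Mx2 from 0.70 to 1.30. That of Slfn5 ranged from 1.198 to 1.78, Ifi207 from 0.69 to 0.95 and Ifi35 from -0.70 to -0.47. The highest values of Ifit2 and Mx1 were those within clusters, in part on few UMIs. The count of lower members, 1 as reported, was 4 with a minimum of 50 UMIs, 6 with 1 UMI in each library, 2 within clusters (Usp18 at -1.27 and Zbp1 at -1.04, both in part on few UMIs, without Ifi35) and 0 after removal of the trend over GC content and length. The first pair follows from the oligoadenylate synthetase genes being admitted, and for the others the cause was not tested. In cells with at most 5% mitochondrial UMIs, 31 member ratios stayed within the counting interval and 0 moved past it. Without cells over 10000 UMIs, 28 stayed and 1 moved. Of 363 values of single members under alternatives, 319 stayed within the counting interval and 44 moved past it. A change of sign came in 18 of them, over 11 members, and in 0 for the 6 members past the fold limit. Of the 11, those whose reported interval was off 0 were Ifnar1 (-0.01), Ifi204 (-0.01) and Gbp3 (0.09), all within clusters, and Irf7 (0.08) without the cluster led by members. Irf7 was among the genes that led that cluster, so its value there is a description only.

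The share of responsive cells depended on the rule. By panel A it was 1.17% in anesthesia and 0.707% in awake cells with 2 genes, 0.827% and 0.638% at 4000 UMIs, and 1.67% and 1.02% without thinning. In anesthesia cells it was 0.220% with 4 genes and 0.232% without the members past the fold limit. By panel B it was 1.04% in anesthesia and 1.06% in awake cells with 2 genes, 0.0733% and 0.136% with 4 genes, 0.701% and 0.652% at 4000 UMIs, and 1.58% and 1.15% without thinning. Fewer genes and more UMIs admit more cells by construction, and which library had the higher share by panel B changed with the depth.

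No paired analysis was possible because each group has 1 library. The macrophage-like class rests on 35 and 53 cells and the endothelial-like class on 123 and 113, in the anesthesia and the awake library, which limits their counts.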
